A study of Oryza sativa Japonica Group and Oryza sativa Indica Group with 16 samples.

Results

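The RAB16 genes of rice lie side by side on chromosome 11, in the order RAB16D, RAB16C, RAB16B and RAB21 (also known as RAB16A). Expression of RAB21 (LOC4350454), RAB16B (LOC4350453) and RAB16D (LOC4350451) was examined in the flag leaves of 2 rice genotypes during drought. The members were the probe sets whose only gene symbol in the annotation of the array was 1 of these 3 genes. That gave 4 of the 57381 probe sets of the Affymetrix rice array: a pair for RAB21, and 1 each for RAB16B and RAB16D. RAB16C (LOC4350452), which has 1 probe set, was not among the members and is used here for comparison.

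IRAT109, a drought-resistant upland cultivar of japonica rice, was compared with ZS97, a drought-sensitive paddy cultivar of indica rice. Plants of both were raised in PVC pipes and droughted by withholding water at the booting stage, and the middle of green flag leaf blades was taken. Stages were set by relative water content: 94 to 95% at D0 (no stress), 83 to 88% at D1 (slight drought), 74 to 78% at D2 and 65 to 69% at D3 (severe drought). Each genotype and stage had 2 biological replicates, giving 16 arrays. Each genotype stands for 1 cultivar, so that what is given as a genotype difference is a difference between 2 cultivars. The labels do not say whether replicates were separate plants or pools, and the p-values below cover only the spread between these samples.

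RAB16 proteins are dehydrins, which are very hydrophilic late embryogenesis abundant proteins. They accumulate in drying seeds and in vegetative tissues that lose water, and are thought to protect membranes and proteins. Their genes are classical targets of abscisic acid: the hormone binds PYL receptors, these restrain clade A protein phosphatases, SnRK2 kinases are thereby released, and bZIP transcription factors activated by the kinases act at abscisic acid-responsive elements of the promoters. RAB21 in particular is used widely as a marker of drought and abscisic acid response in rice.

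The values are array intensities on a linear scale. An array spanned intensities of 3.1 to 3.5 at the bottom and 26045 to 33585 at the top, with a median of 36.9 to 38.8. Because probes of different sequence bind with different strength, levels of genes were compared between samples within a probe set; where a reading is placed among all probe sets, this gives only its position in the range of the array. Leaf identity was checked with 4 genes of the Rubisco small subunit and chlorophyll-binding proteins. Of their 8 probe sets, 6 exceeded an intensity of 64 on some array, and their summed signal was lower in drought: 29990 to 31070 at D3 against 62840 to 63710 at D0 in IRAT109, and 20390 to 20430 at D3 against 55670 to 57830 at D0 in ZS97. The part of this change in the results below was not tested. Neither of the 2 anther probe sets exceeded 64, and 2 of 9 seed storage probe sets did, both of the glutelin gene GLUA2. In whole leaf blades, fewer cells of a type and less RNA per cell cannot be told apart.

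RAB21 was dim in watered leaves and was among the brightest signals of the array in droughted ones. In IRAT109 its intensity was 54.2 and 63.6 on the D0 arrays, 19744 and 18795 at D1, 24245 and 24120 at D2, and 32813 and 33585 at D3. In ZS97 it was 89.5 and 87.4 at D0, 19096 and 18718 at D1, 27651 and 29029 at D2, and 32004 and 32831 at D3. Every droughted array lay far above every D0 array, the replicates of a stage stayed close together, and all the stages of a genotype were separated. The ratio of the mean intensities at D1 to those at D0 was 327 in IRAT109 and 214 in ZS97, and at D3 it was 564 in IRAT109 and 367 in ZS97. RAB21 was the brightest of all probe sets on 6 arrays, namely the D3 arrays of both genotypes and the D2 arrays of ZS97, so that its differences among the late stages were read at the top of the scale.

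The second probe set of RAB21 gave the same picture from a dimmer start. Its name carries the suffix by which Affymetrix marks probes that can match more than 1 transcript, so that signal from related genes could enter it. In IRAT109 it read 18.4 and 20.3 at D0, 7371 and 8001 at D1, 10792 and 10638 at D2, and 16833 and 15401 at D3. In ZS97 it read 19.9 and 25.8 at D0, 7943 and 5512 at D1, 10866 and 10782 at D2, and 13671 and 13473 at D3. The ZS97 arrays at D1 were the least alike of any stage of the members, with a coefficient of variation of 25.5% over 2 replicates.

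RAB16B, the neighbour of RAB21, followed it closely. Its intensity in IRAT109 was 19.8 and 19.2 at D0, 5774 and 5498 at D1, 7035 and 7096 at D2, and 15162 and 15196 at D3. In ZS97 it was 26.4 and 34.2 at D0, 5628 and 5111 at D1, 8685 and 8545 at D2, and 12420 and 12342 at D3. Stages did not overlap in either genotype, and at D3 the IRAT109 arrays were above the ZS97 arrays, while at D0 and D2 they were below. At D0 the signal of RAB16B was so low that 33.6 to 47.5% of the probe sets of the array were dimmer. Detection calls were not used here, so these readings may be background, and the size of a fold change against them is uncertain. The ratio of D3 to D0 means was 778 in IRAT109 and 409 in ZS97.

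RAB16D behaved differently in the 2 genotypes. In IRAT109 its intensity was 73.9 and 80.5 at D0, 81.6 and 72.8 at D1, 106.7 and 100.2 at D2, and 355.0 and 370.7 at D3. In ZS97 it was 57.7 and 62.3 at D0, 730.4 and 751.8 at D1, 2373 and 2318 at D2, and 5651 and 5478 at D3. In IRAT109 the D1 arrays overlapped those of D0, and the gene stood clearly above D0 only at D3, at a mean 4.7 times that of D0. In ZS97 all stages were separated, with a mean 12.4 times that of D0 at D1 and 92.7 times at D3. The highest IRAT109 array at any stage was below the lowest droughted array of ZS97.

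**Figure D1:**
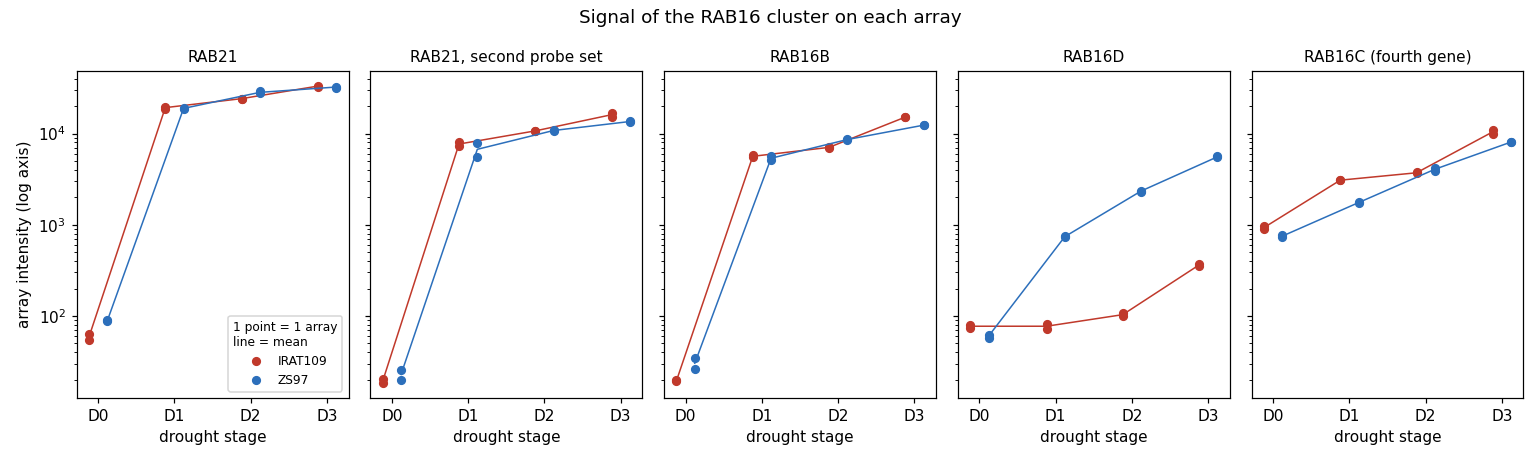
Intensity of each member probe set and of RAB16C on each array (points; lines join the means of 2 replicates), on a log axis against drought stage, with IRAT109 in red and ZS97 in blue; heights of different panels are not comparable. RAB21 and RAB16B climbed in both genotypes already at D1, whereas RAB16D stayed between 72.8 and 106.7 in IRAT109 up to D2 and was between 730.4 and 5651 in droughted ZS97 leaves.

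Changes were tested on log2 of the intensity plus 16 in 1 limma model over all 57381 probe sets, with Benjamini-Hochberg adjustment. A change against D0 was called at an adjusted p under 0.05 and a fold over 2. In IRAT109, 3 of the 4 member probe sets were called higher at D1, 3 at D2 and all 4 at D3, where 2.87%, 2.99% and 3.42% of all probe sets were. In ZS97, all 4 were called higher at each stage, where 2.47%, 3.53% and 4.23% of all probe sets were. No member was called lower, while from D1 to D3 the share of all probe sets was 3.38%, 4.33% and 4.78% in IRAT109, and 2.97%, 3.73% and 4.16% in ZS97. The 3 comparisons of a genotype share its D0 arrays.

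RAB21 was at the head of the drought response of the whole array. In IRAT109 it rose by 8.01 ± 0.06 (log2 change ± SE, n = 2 arrays a group) at D1, by 8.34 at D2 and by 8.80 at D3, with adjusted p of 7.48e-16, 4.58e-16 and 2.38e-16. In ZS97 the rises were 7.5, 8.08 and 8.28, with adjusted p of at most 1.68e-15. Among all probe sets these changes ranked 1, 1 and 2 in IRAT109, and 2, 3 and 3 in ZS97. The second probe set rose by 7.77 ± 0.13, 8.25 and 8.83 in IRAT109 and by 7.42, 8.13 and 8.45 in ZS97, and held the top rank at D3 in both genotypes. Its D0 readings were near the constant, and with a constant of 64 its D3 change was 7.60 in IRAT109 and 7.30 in ZS97, below the 8.08 in IRAT109 and 7.74 in ZS97 of the other RAB21 probe set.

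RAB16B rose in IRAT109 by 7.31 ± 0.07 at D1, by 7.64 at D2 and by 8.74 at D3, and in ZS97 by 6.87, 7.55 and 8.07. These changes ranked 5, 4 and 3 in IRAT109 and 5, 4 and 4 in ZS97. The constant of 16 holds down such values where the D0 signal is low. With a constant of 1 the D3 change of RAB16B was 9.53 in IRAT109 and 8.64 in ZS97, and with 64 it was 7.51 in IRAT109 and 7.05 in ZS97. The calls were the same with each constant.

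RAB16D in IRAT109 changed by -0.0007 ± 0.06 at D1 (adjusted p = 0.998) and by 0.36 at D2, which passed the adjusted p (0.0005) but not the fold threshold, and it rose by 2.02 at D3 (adjusted p = 3.54e-11). In ZS97 it rose by 3.32 ± 0.06 at D1 (adjusted p = 1.12e-12), 4.96 at D2 (2.93e-14) and 6.20 at D3 (5.32e-15). Ranked among the changes of all probe sets in IRAT109 it stood at 28454 at D1, at 7067 at D2 and at 548 at D3, and in ZS97 at 99, 53 and 30.

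**Figure D2:**
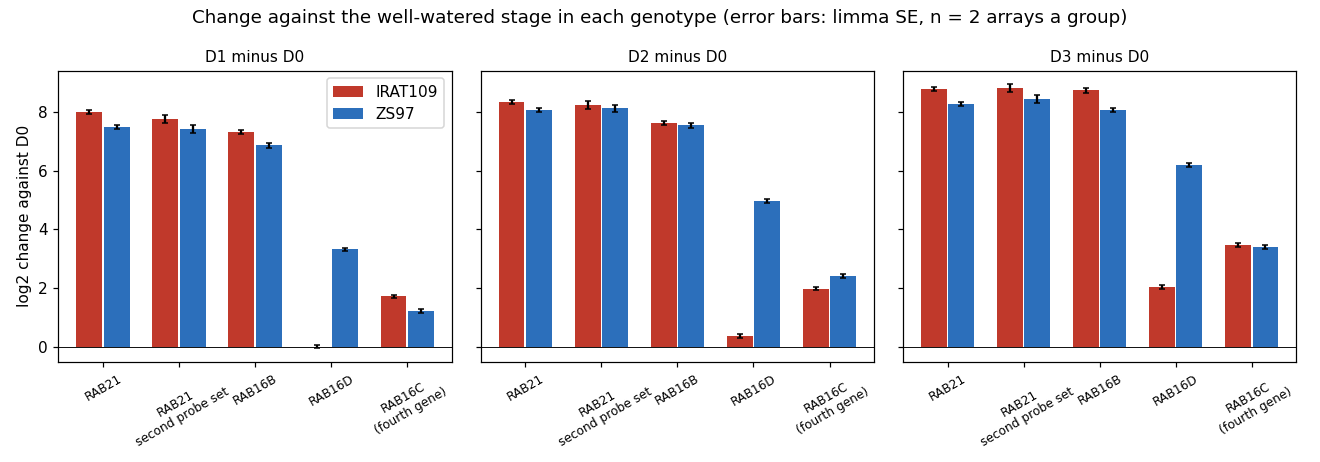
Log2 change against D0 at each drought stage (bars, with the SE of the limma fit) for the member probe sets and RAB16C in IRAT109 (red) and ZS97 (blue). The RAB21 and RAB16B bars stand between 6.87 and 8.83 in both genotypes, and the RAB16D bars run from -0.0007 to 2.02 in IRAT109 and from 3.32 to 6.20 in ZS97.

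By the share of the D3 change reached at D1, RAB16D was later than RAB21 and RAB16B in both genotypes. At D1, RAB21 had 91.1% of its D3 log2 change in IRAT109 and 90.6% in ZS97. Its second probe set had 87.9% in IRAT109 and 87.8% in ZS97, and RAB16B had 83.7% in IRAT109 and 85.1% in ZS97. Differences between these shares were not tested. RAB16D had 53.5% of its D3 change at D1 in ZS97, and in IRAT109 it had -0.03% at D1 and 17.7% at D2. On the intensity scale the share is smaller, since a doubling of a bright signal adds much. At D1, RAB21 had 58.0% of its D3 gain in intensity in IRAT109 and 58.2% in ZS97. Its second probe set had 47.6% in IRAT109 and 49.5% in ZS97, and RAB16B had 37.1% in IRAT109 and 43.2% in ZS97.

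Steps between drought stages were called at an adjusted p under 0.05 with no fold threshold. From D1 to D3 all 4 member probe sets were called higher in both genotypes, as were 6.06% of all probe sets in IRAT109 and 10.1% in ZS97. The D3 minus D1 step was 0.78 for RAB21, 1.43 for RAB16B and 2.02 for RAB16D in IRAT109, and 0.78 for RAB21, 1.20 for RAB16B and 2.88 for RAB16D in ZS97.

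In IRAT109 the later step had the larger estimate for each member probe set. The SE of a step was 0.06 for RAB21, 0.13 for its second probe set, 0.07 for RAB16B and 0.06 for RAB16D. D3 minus D2 was called higher for all 4 probe sets (5.38% of all probe sets), by 0.46 for RAB21 (adjusted p = 0.000331), 0.59 for its second probe set (0.00995), 1.10 for RAB16B (1.06e-06) and 1.67 for RAB16D (1.9e-08). The call of the second RAB21 probe set was lost without either D2 array or without replicate 1 of D3 of IRAT109, with an adjusted p of 0.0733 at most. D2 minus D1 was called for 3 of the 4 (0.692% of all probe sets), by 0.33 for RAB21 (0.0116), 0.33 for RAB16B (0.0296) and 0.36 for RAB16D (0.00759). The second RAB21 probe set, at 0.48, was not called (0.0675). Its step stayed 0.48 without either D1 array of ZS97, the least alike pair. Those arrays enter it only through the shared estimate of the spread. Leaving out single arrays ended several of these calls. That of RAB16B lost its call without any 1 of the 4 IRAT109 arrays of D1 and D2, that of RAB21 without replicate 2 of D1 or either array of D2, and that of RAB16D without replicate 2 of D1 or replicate 1 of D2, at values of 0.29 to 0.36 and adjusted p of up to 0.165.

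In ZS97 the earlier step had the larger estimate for each member probe set. D2 minus D1 was called higher for all 4 probe sets (5.43% of all probe sets), by 0.58 for RAB21 (adjusted p = 5.12e-05), 0.71 for its second probe set (0.00333), 0.68 for RAB16B (5.64e-05) and 1.64 for RAB16D (1.25e-08). D3 minus D2 was called for RAB16B at 0.52 (0.00145) and RAB16D at 1.24 (4.79e-07), that is 2 of 4 probe sets against 1.97% of all. It was 0.19 for RAB21 (0.123) and 0.33 for its second probe set (0.24), neither of which was called. Without either D1 array of ZS97 the 0.33 was unchanged, since those arrays enter this step only through the shared estimate of the spread. Neither the difference between the earlier and the later step within a genotype nor that of these steps between genotypes was tested.

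The difference of the drought response between genotypes was tested directly, as the change against D0 in IRAT109 minus that in ZS97. RAB16D was lower in IRAT109 by this measure at every stage, at -3.32 ± 0.09 at D1 (adjusted p = 5.47e-10), -4.60 at D2 (2.03e-11) and -4.18 at D3 (6.43e-11). Of all probe sets, 7.72% were called lower by this measure at D1, 12.9% at D2 and 12.6% at D3. Among all 57381 probe sets, counted from the most negative, RAB16D ranked 32 at D1, 12 at D2 and 16 at D3. The values stayed between -3.39 and -3.25 at D1, -4.65 and -4.55 at D2, and -4.23 and -4.12 at D3 when each array was left out in turn.

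RAB21 and RAB16B went the other way, by far less. The change of RAB21 was larger in IRAT109 by 0.51 ± 0.09 at D1 (adjusted p = 0.00146) and 0.52 at D3 (0.00106), and by 0.25 at D2, where it was not called (0.057), though without replicate 2 of D0 of IRAT109 it was (0.35, 0.0112). That of RAB16B was larger by 0.45 ± 0.10 at D1 (0.0106) and 0.67 at D3 (0.000539), and by 0.09 at D2 (0.618). Of all probe sets, 6.8% were called higher by this measure at D1, 9.13% at D2 and 8.25% at D3, so that 2 of 4 member probe sets at D1 and D3 is above that share, and 0 of 4 at D2 is not. The second probe set of RAB21 gave 0.35 at D1 (0.279), 0.12 at D2 (0.735) and 0.38 at D3 (0.176), none of them called. With each array left out in turn, its D1 value ran from 0.0839 to 0.61. The 0.61 came without replicate 1 of D1 of ZS97, the array at 7943, so that the size rests on single arrays. Its D3 value stayed 0.38 without either D1 array of ZS97, which enter it only through the shared estimate of the spread.

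Levels at each stage show where these differences arose. At D0, IRAT109 was below ZS97 by 0.48 ± 0.06 for RAB21 (log2 level difference of -0.48, adjusted p = 5.48e-05) and by 0.38 for RAB16B (-0.38, adjusted p = 0.00161), and above it for RAB16D, at 0.29 (0.00341). The second RAB21 probe set gave -0.13 at D0 (0.523) and 0.25 at D3 (0.193), neither of them called. Without either D1 array of ZS97 the D3 value was unchanged. At D0 thus 1 of 4 member probe sets was called higher and 2 lower in IRAT109, where 12.8% of all probe sets were higher and 14.9% lower. For RAB21 the level difference at D1 (0.03, adjusted p = 0.821) and at D3 (0.03, 0.764) was smaller than its SE, so that the larger change in IRAT109 at these stages has nearly the size of its lower start. RAB16B also had no called difference at D1 (0.07, 0.564), was lower in IRAT109 at D2 (-0.29, 0.00853, and 0.0509 without replicate 1 of ZS97 at D2) and higher at D3 (0.29, 0.00745). With a constant of 1 both calls were lost, at an adjusted p of 0.0581 at D2 and 0.053 at D3. RAB21 was lower in IRAT109 at D2 too (-0.23, 0.0119), a call lost without either IRAT109 D2 array or without replicate 2 of ZS97 at D2, where the adjusted p reached 0.0975, and with a constant of 1 (0.0679).

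RAB16D changed places between the genotypes. Its mean intensity in IRAT109 was above that of ZS97 at D0, where ZS97 over IRAT109 was 0.777, and far below it in drought, where ZS97 was 9.6 times IRAT109 at D1, 22.7 times at D2 and 15.3 times at D3. The log2 level of IRAT109 minus ZS97 was -3.02 ± 0.06 at D1 (adjusted p = 1.34e-12), -4.31 at D2 (8.45e-14) and -3.88 at D3 (1.85e-13). In drought it was the only member probe set called lower in IRAT109 at D1 and at D3, where 15.4% and 18.5% of all probe sets were, and at D2 it was 1 of 3 called lower, against 18%. Called higher in IRAT109 were 0 of 4 at D1 (12.9% of all probe sets), 0 of 4 at D2 (13.5%) and, with RAB16B, 1 of 4 at D3 (12.3%). Sequence differences between the cultivars under the probes can alter a signal in 1 of them, and their part here was not tested.

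**Figure D3:**
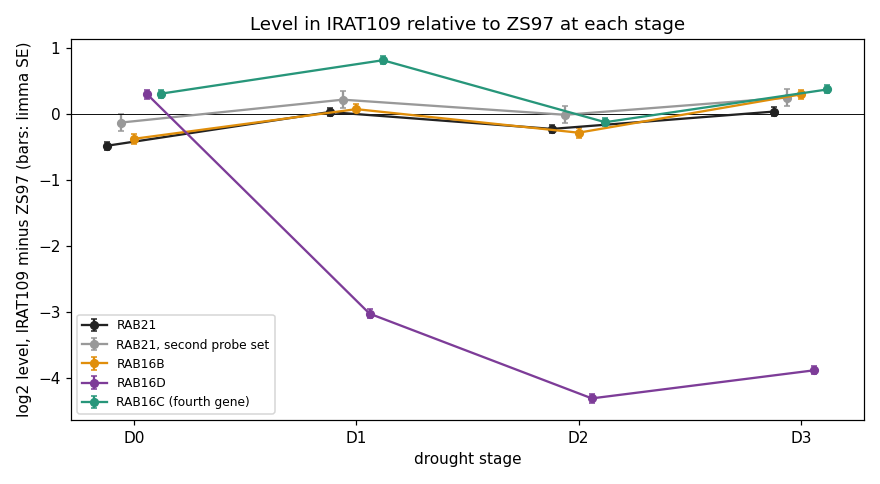
Log2 level in IRAT109 minus that in ZS97 at each stage, with the SE of the limma fit, for the member probe sets and RAB16C. RAB16D stands at 0.29 at D0 and between -4.31 and -3.02 in drought, while the other probe sets lie between -0.48 and 0.81 at every stage.

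The divergence within the cluster was examined by comparing members with each other array by array. For each pair, the mean difference of the log2 values in drought was set against that at D0, with an exact two-sided permutation test of the stage labels within each genotype, over 6 pairs and 784 arrangements each. RAB21 changed by 5.36 log2 units more than RAB16D (7.59 in IRAT109 and 3.13 in ZS97) and RAB16B by 4.89 more (7.11 in IRAT109 and 2.67 in ZS97). Both gave an adjusted exact p of 0.00255, from an exact p of 0.00128, which is the smallest this design allows. RAB21 changed by 0.47 more than RAB16B (exact permutation p = 0.0051, adjusted 0.00612), but with a constant of 1 the difference was 0.07 (adjusted 0.713). The probe sets of RAB21 differed by 0.03 (exact permutation p = 0.793), and with a constant of 1 by -0.45 and of 64 by 0.59, both passing the test, so that their relative size is set by the constant.

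As a description, RAB21 and RAB16B had a Pearson correlation of 0.997 over the 16 arrays and 0.963 over the 12 droughted ones. RAB16D correlated with RAB21 at 0.931 over the 8 ZS97 arrays and 0.476 over the 8 IRAT109 arrays, and with RAB16B at 0.948 in ZS97 and 0.544 in IRAT109. The points share stages and genotypes, and the jump away from D0 sets much of these values.

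RAB16C, which lies between RAB16D and RAB16B, had its own pattern. In IRAT109 its intensity was 893.1 and 970.4 at D0, 3111 and 3061 at D1, 3678 and 3762 at D2, and 10925 and 10009 at D3. In ZS97 it was 738.5 and 763.5 at D0, 1739 and 1765 at D1, 4199 and 3930 at D2, and 8174 and 8012 at D3. Its reading before stress was above those of 90.4 and 91.3% of probe sets on the IRAT109 D0 arrays. Its mean at D3 was 11.2 times that at D0 in IRAT109 and 10.8 times in ZS97. Its change was larger in IRAT109 at D1 by 0.51 (adjusted p = 0.00135) and smaller at D2 by a difference of -0.43 (0.00285), and at D3 the difference was 0.06 (0.67). The neighbours RAB16D and RAB16C thus differed in genotype pattern: at D3 the log2 level of IRAT109 minus ZS97 was -3.88 for RAB16D and 0.37 for RAB16C.

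The genes around the cluster were examined in the same way. Of the 10 protein-coding genes nearest on each side in the RefSeq gene order, 10 in all had a probe set of their own. None of the 10 was called higher at any stage in either genotype, and 1 was called lower in 1 comparison, LOC4350457 at D3 in IRAT109 (-1.09). Their log2 changes ran from -1.09 to 0.69. Against D0, 2.47 to 4.23% of all probe sets were called higher and 2.97 to 4.78% lower. Counts of 0 and 1 among 10 are near that background. By the genotype difference of the change at D3, LOC4350437 (-0.504), LOC4350441 (-0.355), LOC4350457 (-1.07), LOC4350459 (-0.372) and LOC4350462 (-0.366) were called lower in IRAT109 (12.6% of all probe sets). At D1 they were LOC4350437, LOC4350457 and LOC4350458 (7.72%), and at D2 LOC4350437, LOC4350455, LOC4350457 and LOC4350462 (12.9%). None was called higher by this measure at any stage, where 6.8% of all probe sets were at D1, 9.13% at D2 and 8.25% at D3. Among 10 genes that is near the background.

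**Figure D4:**
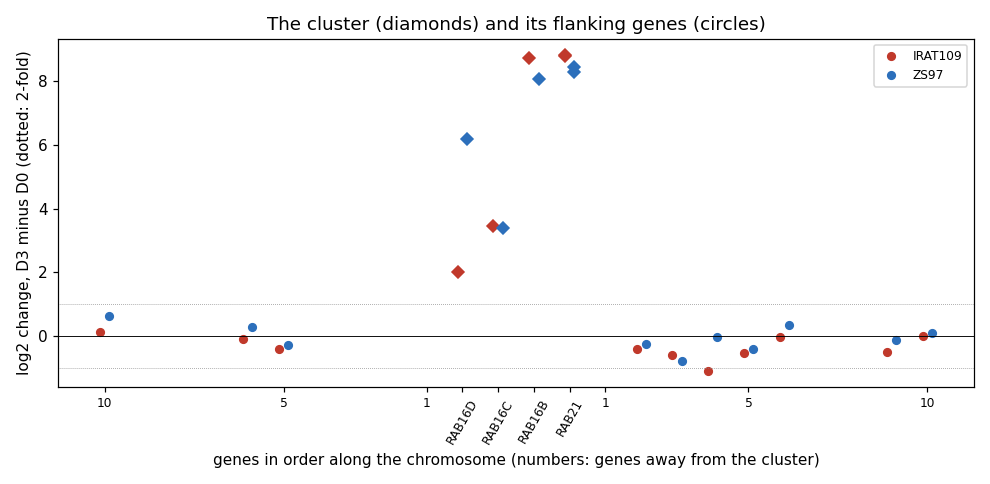
Log2 change at D3 against D0 for the RAB16 cluster (diamonds; RAB21 with both probe sets) and the flanking genes that have a probe set (circles), in gene order along the chromosome, in IRAT109 (red) and ZS97 (blue). The cluster stands between 2.02 and 8.83, and the flanking genes lie between -1.09 and 0.63.

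Other dehydrins also rose, by less than RAB21 and RAB16B at D3. DHN1 rose by 2.86 in IRAT109 and 3.03 in ZS97 at D3 by the brightest of its 3 probe sets. Its intensity there was 5496 and 5821 at D3 against 712.8 and 824.5 at D0 in IRAT109, and 4552 and 4785 at D3 against 549.5 and 564.8 at D0 in ZS97. The other 2 probe sets of DHN1 read 38.7 or less on those arrays and were not called. RAB25 rose by 2.83 in IRAT109 and 1.5 in ZS97, a difference of 1.33 ± 0.16 (adjusted p = 8.33e-05), from intensities of 12.5 to 15.5 at D0. Its D3 values were 175.8 and 215.2 in IRAT109 and 81.0 and 63.7 in ZS97.

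Genes of the abscisic acid pathway were taken as listed for the members' known regulation. With the other dehydrins, 27 of 31 listed genes had 30 probe sets. RAB16C of the cluster was counted among these dehydrins, and it was called higher in each comparison against D0. In IRAT109, 13 were called higher and 3 lower at D1, 15 higher and 3 lower at D2, and 16 higher and 4 lower at D3. In ZS97, 13 were called higher and 1 lower at D1, 13 higher and 2 lower at D2, and 15 higher and 1 lower at D3. Of all probe sets, 2.47 to 4.23% were called higher and 2.97 to 4.78% lower in these comparisons. Without a fold threshold the numbers called higher at D1 in IRAT109 and at D2 in ZS97 were both 20, where 16% of all probe sets were at D1 in IRAT109 and 17.2% at D2 in ZS97.

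Among the clade A phosphatases, the brakes of the pathway, 7 of 8 probe sets were called higher at D3 in IRAT109 (3.42% of all probe sets). In ZS97, 6 were (4.23%). Their median change was 1.99 in IRAT109 and 1.81 in ZS97, against 0.02 and -0.01 over all probe sets. PP2C51 rose by 4.91 in IRAT109 and 5.19 in ZS97 by the probe set with the larger change, and by 2.57 in IRAT109 and 3.04 in ZS97 by its other one, where the difference of -0.47 passed (adjusted p = 0.0134). PP2C68 rose by 4.09 in IRAT109 and 2.65 in ZS97, the change in IRAT109 being larger by 1.44 (adjusted p = 3.08e-06). PP2C09 rose by 2.04 in IRAT109 and 2.0 in ZS97, and PP2C30 by 1.95 in IRAT109 and 1.51 in ZS97. The 1 receptor on the list with a probe set, PYL11, was not called, at 0.78 in IRAT109 and 0.57 in ZS97. Both changes passed the adjusted p (8.69e-08 in IRAT109 and 1.75e-06 in ZS97) but not the fold threshold.

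The genes of the SnRK2 kinase family were mixed, and which of them act in the abscisic acid response was not examined here. Of 10 probe sets, 3 were called higher and 2 lower at D3 in IRAT109, where 3.42% of all probe sets were higher and 4.78% lower. In ZS97, 3 were called higher and 1 lower, where 4.23% of all were higher and 4.16% lower. The count of 1 lower among 10 is near that share. SAPK4 rose by 2.15 in IRAT109 and 1.90 in ZS97, and SAPK10 by 1.61 in IRAT109 and 1.92 in ZS97. SAPK2 fell by 1.61 in both genotypes. SAPK3 rose by 1.18 in IRAT109, against a change of 0.24 in ZS97 that was not called, with a difference of 0.94 (adjusted p = 2.09e-06).

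Of the transcription factors, BZIP23, an activator of abscisic acid-responsive genes, rose by 2.34 in IRAT109 and 1.64 in ZS97, a difference of 0.70 ± 0.07 (adjusted p = 2.64e-05). TRAB1, another bZIP factor of this kind, rose by 1.18 in IRAT109 and 1.02 in ZS97, and the call in ZS97 lay close to the 2-fold threshold and was lost without replicate 2 of D0 or replicate 1 of D3 of ZS97. VP1, a seed regulator that acts with them, was not called (0.06 in IRAT109 and -0.10 in ZS97), and its intensities of 13.7 to 20.1 across all arrays were near the bottom of the scale. The difference of change between genotypes at D3 ran from -0.95 to 1.44 over all these listed probe sets, while that of RAB16D was -4.18.

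**Figure D5:**
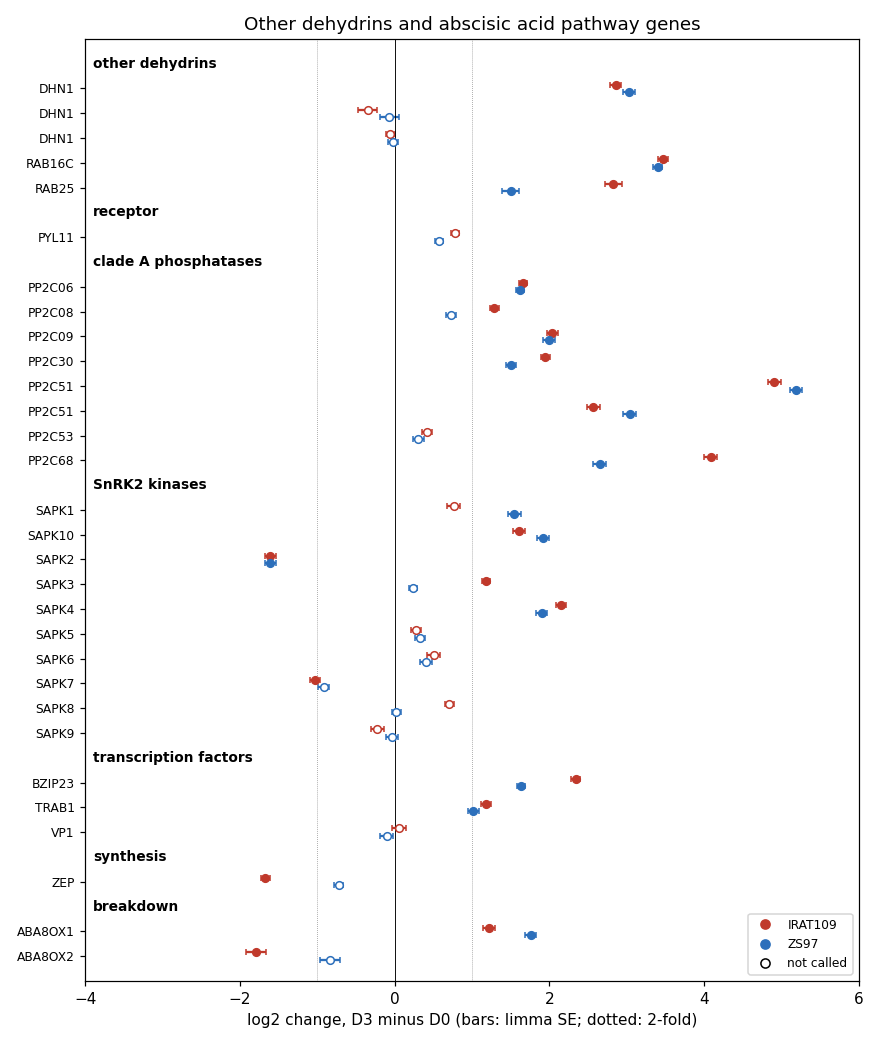
Log2 change at D3 against D0 in IRAT109 (red) and ZS97 (blue), with the SE of the limma fit, for the probe sets of other dehydrins and of the abscisic acid pathway; open circles were not called and dotted lines mark a 2-fold change. PP2C51 and PP2C68 lie farthest to the right, at 4.91 and 4.09 in IRAT109, and SAPK2 lies at -1.61 in both genotypes.

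The genes whose profile over the 16 arrays was most like that of each member were looked up by Pearson correlation. For RAB21 they were LOC4324350 (0.998), LOC4342703 (0.998) and LOC4324175 (0.997), and for RAB16B LOC4324175 (0.999), LOC4346387 (0.998) and LEA19 (0.998). LEA19, also known as LEA3-1, encodes another late embryogenesis abundant protein, and it changed by 7.90 in IRAT109 and 7.87 in ZS97 at D3. Over the 16 arrays, 548 probe sets (0.955%) exceeded a correlation of 0.95 with RAB21 and 581 (1.01%) with RAB16B. Over the 12 droughted arrays, 49 (0.0854%) did with RAB21 and 65 (0.113%) with RAB16B.

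The profile of RAB16D had other partners. LOC4323901 (0.989), LOC4346304 (0.988) and LOC4341305 (0.987) came nearest to it, and 153 probe sets (0.267%) exceeded 0.95, against 654 (1.14%) over the 12 droughted arrays. For LOC4323901 the D1 change was 0.37 in IRAT109 and 2.47 in ZS97, and the D3 change was 2.32 in IRAT109 and 4.34 in ZS97. For LOC4341305 the D1 change was 0.49 in IRAT109 and 2.39 in ZS97, and the D3 change was 1.63 in IRAT109 and 4.65 in ZS97. Over the 12 droughted arrays alone, the nearest were LOC4330759 for RAB21 (0.985), LOC4326740 for RAB16B (0.995) and LOC4333004 for RAB16D (0.997). LOC4333004 had negative changes in both genotypes at D3 (-1.54 in IRAT109 and -0.65 in ZS97), and LOC4332255 (0.996), the next gene, had positive ones (0.58 in IRAT109 and 0.73 in ZS97).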

How the data were processed

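Flag leaf RNA was hybridized to 16 Affymetrix rice arrays. The values used are intensities as deposited, a single linear number for each probe set on each array, and they were not rescaled. How the probes were summarized could not be settled: MAS5 is named in the labels (version not given), and the robust multiarray average in the methods of the study. A constant of 16 was added before log2, which damps the changes of dim probe sets; 27.9 to 29.5% of an array is below it. The number of arrays limits the precision.

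A limma model (3.58.1, R 4.3.3) of 8 group means was fitted to all 57381 probe sets, 123 controls included. It had 8 residual and 4.28 prior degrees of freedom, and the median of the residual SD was 0.0827. The alternatives tried were rank products (the test of the study, by formula), a constant of 1 or 64, centring on the median, quantile normalization, leaving out dim probe sets (under 64 on all but 1 array), a block for the replicate number, separate fits for each genotype, an intensity trend, lists with no fold threshold, and each array left out. The fit and the permutation test were tested on simulated data. The members, the lists, the tests and the rule for names (all members, up to 4 called genes of a list by D3 change in IRAT109, and the 3 most correlated genes) were chosen with earlier results of these data known. In the probe annotation 22436 probe sets have 1 gene symbol, 95 several and 34850 none. Gene names and gene order came from the RefSeq table, and no probe or promoter sequence was used here.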

Additional observations from a re-analysis of the deposited data

Results flagged for a closer look

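The change against D0 differed between IRAT109 and ZS97, by the interaction term of the limma fit, for 3 genes of the cluster and for RAB16C. The value for RAB16D was -3.32 at D1, -4.60 at D2 and -4.18 at D3, all with the smaller change in IRAT109, and each droughted IRAT109 array was below each droughted ZS97 array. The values for RAB21 were 0.51 at D1 and 0.52 at D3, and those for RAB16B were 0.45 at D1 and 0.67 at D3, with the larger change in IRAT109. The second RAB21 probe set was called at neither stage (0.35 at D1 and 0.38 at D3). For RAB16C the value was 0.51 at D1 and -0.43 at D2, so that its sign turned between the stages. With 2 arrays a group, single arrays that stand apart were not looked for.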

How the results depend on the processing

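Of 600 values of the members' changes against D0 under the alternatives, 598 kept direction and call, and the other 2 were the near-zero change of RAB16D at D1 in IRAT109, which ran from -0.0689 to 0.0675 without each array. All values of the genotype difference of RAB16D in drought kept theirs. The results that moved were small steps and differences; the cause was not tested except where the constant itself sets dim values. With a constant of 1, the calls of the IRAT109 D2 minus D1 steps of RAB21 (0.33) and RAB16B (0.33) and of the levels at D2 of RAB21 (-0.23) and RAB16B (-0.29) and at D3 of RAB16B (0.29) were lost, RAB21 minus RAB16B was 0.0657 and RAB21 minus its second probe set -0.45. With 64, the ZS97 D3 minus D2 step of RAB21 (0.19) passed, the RAB16B difference of change at D2 was -0.11, the RAB21 probe sets differed by 0.59 and 1 pathway probe set was called lower at D2 in ZS97. Quantile normalization gave -0.0227 for the RAB21 level at D1, -0.00213 for the RAB16C difference of change at D3, -0.0355 between the RAB21 probe sets and 0.41 for RAB21 minus RAB16B, no longer past the test. Median centring gave -0.00182 for the RAB21 level at D3. The filter and the intensity trend let the D2 minus D1 step of the second RAB21 probe set in IRAT109 (0.48) and the RAB21 difference of change at D2 (0.25) pass, and the trend also the ZS97 D3 minus D2 step of RAB21 (0.19). With arrays of 1 genotype, that 0.48 passed and the steps of RAB21 (0.33) and RAB16D (0.36) did not.

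Without each array in turn, the IRAT109 D2 minus D1 steps were 0.29 to 0.36 for RAB21, 0.29 to 0.36 for RAB16B, 0.29 to 0.43 for RAB16D and 0.42 to 0.54 for the second RAB21 probe set, whose D3 minus D2 step was 0.52 to 0.65 in IRAT109 and 0.32 to 0.34 in ZS97. Differences of change were 0.16 to 0.35 for RAB21 at D2, -0.0291 to 0.22 for RAB16B at D2, and 0.0839 to 0.61 at D1 and 0.27 to 0.49 at D3 for the second RAB21 probe set. Levels were -0.00848 to 0.0625 at D1 and -0.26 to -0.19 at D2 for RAB21, -0.30 to -0.27 at D2 for RAB16B, and -0.0486 to 0.48 at D1 and 0.18 to 0.31 at D3 for the second RAB21 probe set. The RAB21 probe sets differed by -0.0355 to 0.0888. Pathway probe sets called lower in ZS97 at D2 were 1 to 2.

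With no fold threshold, 20 of the 30 pathway and dehydrin probe sets were called higher at D1 in IRAT109 (16% of all probe sets). At D2 in ZS97, 20 were (17.2%). Called lower were 5 at D1 and 5 at D2 in IRAT109, and 4 at each of D1, D2 and D3 in ZS97. The share of all probe sets called lower by this rule was not computed, so these lower counts cannot be set against a background. The replicate block changed no call (RAB16D difference of change at D2: -4.60, adjusted p = 3.26e-10). Replicate numbers carry no stated batch, and replicate differences of 28 pairs of groups correlated at -0.319 to 0.163, so that samples were not paired. Signal near the constant limits the D0 values of RAB16B and of the second RAB21 probe set.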

Other observations

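Genes that make and break down abscisic acid were on the same lists. Of 2 listed for synthesis 1 had a probe set, and of 3 listed for breakdown 2 did. Synthesis as a whole was therefore not read here. ZEP, the zeaxanthin epoxidase of abscisic acid synthesis, fell by 1.67 at D3 in IRAT109, against a change of -0.72 in ZS97 that was not called, a difference of -0.95 ± 0.09 (limma, adjusted p = 8.48e-06). ABA8OX1, a hydroxylase that breaks the hormone down, rose by 1.22 in IRAT109 and 1.76 in ZS97, a difference of -0.54 (adjusted p = 0.00244). ABA8OX2, of the same family, fell by 1.79 in IRAT109 and had an uncalled change of -0.84 in ZS97, a difference of -0.95 (adjusted p = 0.00287). Among the kinases, SAPK1 had an uncalled change of 0.76 in IRAT109 and rose by 1.55 in ZS97, a difference of -0.79 (adjusted p = 0.000286), and SAPK8 changed by 0.71 in IRAT109 and 0.02 in ZS97, neither called, a difference of 0.69 (adjusted p = 7.11e-05).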
